A study of Mus musculus with 32 samples.

Results

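The 10 genes described here encode integrin subunits of adipose tissue macrophages: the alpha subunits Itgax (CD11c), Itgam (CD11b), Itgal (CD11a), Itgae (CD103), Itgav and Itga4, and the beta subunits Itgb2 (CD18), Itgb1, Itgb5 and Itgb7. They were taken by symbol from tables of 24421 genes. All 10 were found and all 10 passed the filter on low counts, which left 13453 genes to test. RNA was sequenced in bulk from macrophages sorted out of the epididymal fat of C57BL/6J mice. The study set mice lacking A20 in myeloid cells (KO) against wild-type mice (WT), and 12 weeks of high-fat diet (HFD) against 12 weeks of standard diet (SD). Each mouse group gave a CD11c+ population, with little CD206 and much CD11c, and a CD206+ population, with much CD206 and little CD11c. This made 8 groups of 4 libraries: CD11c+ KO HFD, CD11c+ WT HFD, CD11c+ KO SD, CD11c+ WT SD, CD206+ KO HFD, CD206+ WT HFD, CD206+ KO SD and CD206+ WT SD. The A20 protein, product of Tnfaip3, edits ubiquitin chains and holds back NF-kB. The labels name neither the promoter behind the myeloid deletion nor the age of the mice, nor whether each library stands for its own mouse. The p-values therefore measure only the spread between these libraries, and that spread may be technical.

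Integrins are adhesion receptors made of 1 alpha and 1 beta subunit, and the pairing decides the ligand. Itgb2 pairs with Itgal, Itgam, Itgax or Itgad to form the leukocyte integrins that bind ICAMs, complement C3 fragments and fibrinogen. Itga4 pairs with Itgb1 or Itgb7 and binds VCAM-1, fibronectin or MAdCAM-1, Itgae pairs with Itgb7 and binds E-cadherin, and Itgav pairs with several beta subunits, among them Itgb5, to bind vitronectin and the bridging protein MFG-E8 on dying cells. CD11c on the cell surface is the customary mark of the macrophages that gather in obese fat.

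Total gene counts per library lay between 17619638 and 23832924, and the 10 members took 0.183% to 0.479% of them. Levels are given as CPM, read counts set to a common library total after TMM scaling. Tnfaip3 lay between 167 and 474 CPM in the 16 KO libraries and between 486 and 1647 CPM in the 16 WT libraries. Its counts cover the whole gene and so do not measure the deleted part. Of 9 macrophage markers 8 were in the tables, and each of these was above 1 CPM on average in every group, Lyz2 highest. The 8 WT SD libraries stood apart on the third principal component (13.7% of variance). There they lay between -38.8 and -28.4 and every other library above 0.766, so comparisons with a WT SD group carry that separation.

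The promoters of the neighbouring genes Itgam and Itgax are shown because these genes, next to each other and for partners of the same beta subunit, had different patterns, and those of Itgav and Itgb5 because both were highest in WT cells on HFD in each population. In GENCODE vM21 (GRCm38), Itgam covers chromosome 7 from 128062640 to 128118491 and Itgax from 128129547 to 128150657, with 11055 bases between them, and Itgad starts 3718 bases after Itgax. Each sequence is 5′ to 3′ on the gene's strand, 250 bases before the RefSeq start site (GRCm38.p6) and 50 after it, and 7 of the 10 members had an entry. Capitals mark GAGGAA on either strand (TTCCTC when read on the other strand), the core of the motif bound by the myeloid factor PU.1, and TGANTCA, the AP-1 motif, which reads the same on both strands.
Itgax, chr7:128129300-128129599: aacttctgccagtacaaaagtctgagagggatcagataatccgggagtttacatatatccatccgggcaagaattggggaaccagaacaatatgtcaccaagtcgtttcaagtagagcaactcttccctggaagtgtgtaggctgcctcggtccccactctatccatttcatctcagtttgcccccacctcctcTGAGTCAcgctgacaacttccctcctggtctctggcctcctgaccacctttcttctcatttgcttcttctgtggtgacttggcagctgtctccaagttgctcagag
Itgam, chr7:128062390-128062689: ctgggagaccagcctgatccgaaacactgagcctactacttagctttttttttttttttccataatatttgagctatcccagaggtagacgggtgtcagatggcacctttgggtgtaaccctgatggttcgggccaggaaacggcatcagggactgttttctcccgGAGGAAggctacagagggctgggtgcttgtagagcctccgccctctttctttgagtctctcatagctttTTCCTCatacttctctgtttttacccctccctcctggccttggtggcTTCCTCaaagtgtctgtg
Itgav, chr2:83724147-83724446: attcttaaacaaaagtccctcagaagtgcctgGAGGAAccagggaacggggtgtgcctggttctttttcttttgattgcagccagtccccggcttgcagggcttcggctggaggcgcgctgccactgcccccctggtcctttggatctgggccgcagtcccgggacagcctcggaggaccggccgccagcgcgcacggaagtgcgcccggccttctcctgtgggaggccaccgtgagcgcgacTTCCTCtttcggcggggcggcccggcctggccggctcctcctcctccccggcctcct
Itgb5, chr16:33829415-33829714: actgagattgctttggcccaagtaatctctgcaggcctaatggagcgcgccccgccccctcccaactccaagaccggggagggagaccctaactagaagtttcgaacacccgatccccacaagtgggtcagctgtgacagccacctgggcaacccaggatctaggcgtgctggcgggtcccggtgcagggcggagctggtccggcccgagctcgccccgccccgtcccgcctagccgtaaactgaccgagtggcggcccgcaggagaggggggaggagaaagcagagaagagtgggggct
The Itgax window held TGANTCA once, with its first base at -56 from the start site, and no GAGGAA. The Itgam window held GAGGAA at -84 and, on the other strand, at -15 and 32, and no TGANTCA. The Itgav window held GAGGAA at -218 and, on the other strand, at -7. The Itgb5 window held neither motif. No match overlapped another. Over 32851 promoter windows of this length, GAGGAA on either strand occurred in 28.3% and TGANTCA in 7.81%, so a match describes the letters and is no evidence of binding.

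A gene is called higher or lower where its adjusted p (edgeR quasi-likelihood test, Benjamini-Hochberg over all genes tested) is under 0.05. In KO against WT CD11c+ cells on HFD, 4 of the 10 members were higher (Itgal, Itgae, Itga4, Itgb7) and 3 lower (Itgav, Itgb5, Itgax), while 18.6% of all genes tested were higher and 19.4% lower. On HFD the KO CD206+ cells had 3 higher (Itgal, Itgb2, Itgb7) and 3 lower (Itgax, Itgav, Itgb5), beside 10.5% and 11.3% of all genes. On SD the KO CD11c+ cells were higher for 3 members (Itgal, Itgae, Itgb5) and lower for 1 (Itgb7), beside 13.2% and 13.6%. On SD the KO CD206+ cells were higher for 5 (Itgal, Itgb7, Itga4, Itgam, Itgb2) and lower for 0, beside 11.8% and 12.7%. The median size of the log2 fold change over the 10 members, sign left aside, was 1.25 in CD11c+ cells on HFD, against 0.333 over all genes. It was 1.01 against 0.232 in CD206+ cells on HFD, 0.411 against 0.27 in CD11c+ cells on SD, and 0.497 against 0.243 in CD206+ cells on SD. The members were chosen with earlier results of these data known, so these medians, and those between the diets below, may reflect that choice.

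The diets were compared within each genotype and population. In CD11c+ WT cells 3 members were higher on HFD than on SD (Itgb5, Itgav, Itgb1) and 3 lower (Itgb7, Itgal, Itgam), beside 23.8% and 22.6% of all genes. In CD206+ WT cells 4 were higher (Itgax, Itgav, Itgb5, Itgb1) and 1 lower (Itgb7), beside 14.2% and 13.5%. The median size of the log2 fold change over the members was 0.451 in CD11c+ WT cells, near the 0.396 over all genes. In CD206+ WT cells it was 0.624 against 0.275. In KO cells no member was called in either population by edgeR or DESeq2. At an unadjusted p under 0.05 edgeR gave 1 member in each population, Itgb5, named after its values were seen. All genes gave 0.00743% higher and 0% lower in CD11c+ KO cells (1 gene) and 0% higher and 0% lower in CD206+ KO cells, where DESeq2 gave 51 and 18 genes and an unadjusted p under 0.05 in edgeR 1221 and 831. The count in CD11c+ KO cells ran from 0 without HFD replicate 3 to 84 without HFD replicate 1, and that in CD206+ KO cells from 0 to 7, the 7 without SD replicate 1.

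The effect of genotype was tested against diet by their interaction. In CD11c+ cells the KO against WT difference was more positive on HFD than on SD for 2 members (Itgb7, Itgal) and more negative for 2 (Itgb5, Itgav), beside 13.9% and 15% of all genes. In CD206+ cells this was so for 1 member (Itgb7) and for 3 (Itgax, Itgav, Itgb5), beside 5.23% and 6.63%. The sections below give the values behind these calls.

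**Figure D1:**
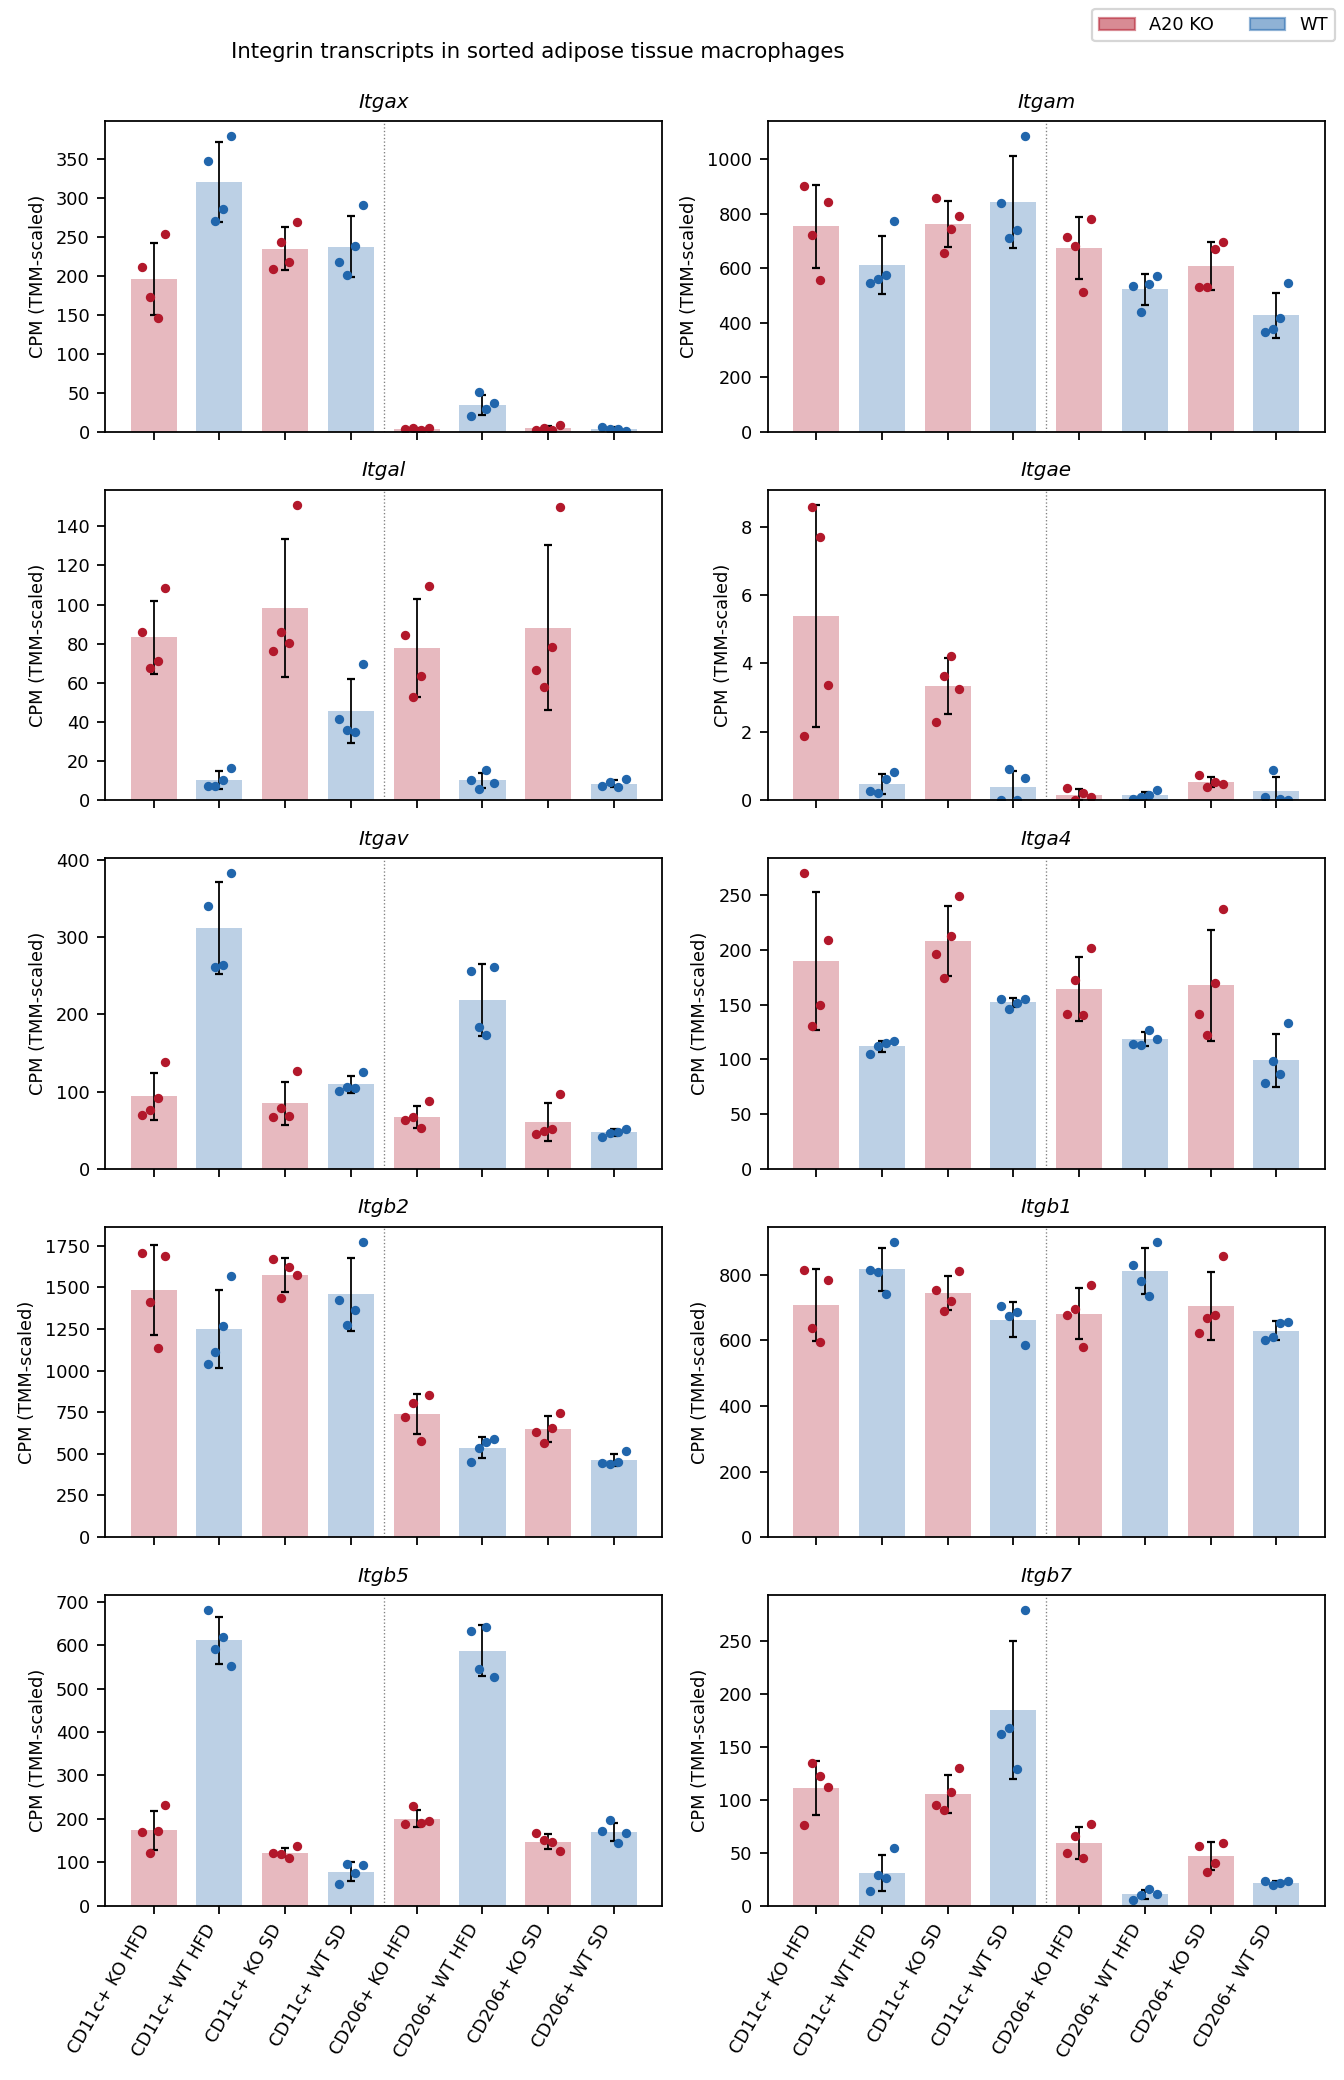
Levels of the 10 integrin transcripts in CPM (vertical axis, from 0) in each of the 8 groups (horizontal axis). Points are the 4 libraries of a group, bars their mean and whiskers the SD. Itgb5 and Itgav stand highest in both WT HFD groups, Itgal is above 52 CPM in every KO library, and Itgax is near 0 in 3 of the 4 CD206+ groups.

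**Figure D2:**
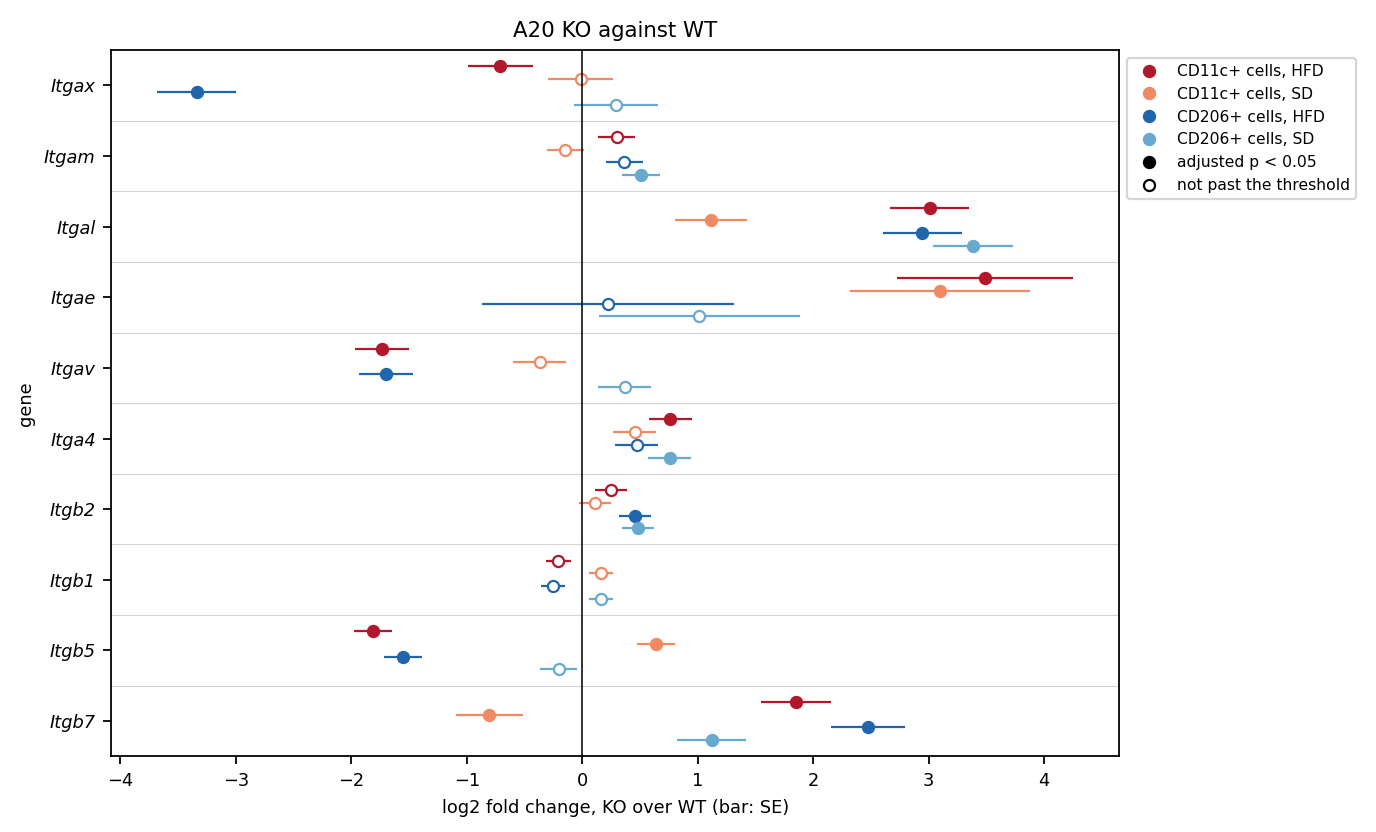
Log2 fold change of KO over WT (horizontal axis) for each member (vertical axis) in the 4 combinations of population and diet. Points are edgeR estimates, bars their SE, and filled points have an adjusted p under 0.05. Itgal lies to the right of 0 in all 4, and Itgav and Itgb5 lie left of -1.5 on HFD in both populations.

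Itgax encodes CD11c, the sort marker, so its difference between the populations is a description with no test. In CD11c+ cells on HFD it had 211, 173, 146 and 253 CPM in KO libraries, against 347, 269.6, 285 and 379 CPM in WT libraries. Every KO library was below every WT library. The means were 196 ± 46.5 CPM in KO and 320.3 ± 51.5 CPM in WT (SD, n = 4 each), a log2 fold change of -0.71 ± 0.28 (SE; edgeR, adjusted p = 0.0463). The call is marginal: the adjusted p was 0.102 with DESeq2 and 0.0588 with no filter on low counts. It was lost without KO replicate 1, 2 or 3 or WT replicate 1, 3 or 4, at 0.0533 to 0.149. On SD the CD11c+ libraries had 209, 243, 218 and 269 CPM in KO against 218, 200.3, 239 and 291 CPM in WT, and these overlapped (log2 fold change -0.01 ± 0.28, adjusted p = 0.982).

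CD206+ cells, which were low for CD11c protein, held little Itgax except in WT mice on HFD. On HFD it had 3.64, 4.17, 1.62 and 4.22 CPM in KO libraries, against 20.7, 50.3, 29.5 and 37.0 CPM in WT libraries, with no overlap. This gave a log2 fold change of -3.34 ± 0.34 (adjusted p = 1.34e-08). On SD it had 2.58, 4.62, 2.71 and 8.24 CPM in KO libraries and 6.08, 3.29, 3.90 and 1.26 CPM in WT libraries, with overlap (0.30 ± 0.37, adjusted p = 0.609). In CD206+ WT cells HFD exceeded SD by 3.23 ± 0.34 on the log2 scale (adjusted p = 3.5e-08), and the interaction of genotype and diet was -3.64 ± 0.50 (adjusted p = 1.14e-05). In CD206+ KO cells HFD against SD gave -0.41 ± 0.37 (adjusted p = 0.913). The genotype difference of Itgax on HFD was weaker in CD11c+ than in CD206+ cells, by 2.63 ± 0.44 on the log2 scale. In CD11c+ cells the means were 196 CPM in KO and 320.3 CPM in WT. In CD206+ cells they were 3.41 CPM in KO and 34.4 CPM in WT. The sort on CD11c bounds both levels, so this comparison of the populations is also a description with no test.

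Ordered by mean, Itgax fell into 3 levels without overlap: the 4 CD11c+ groups, then CD206+ WT HFD, then the other CD206+ groups, and neighbours within a level overlapped. Group means of Mrc1, the gene of CD206, were 453 to 633 CPM for CD11c+ and 1458 to 1893 CPM for CD206+. KO against WT, Mrc1 gave -0.01 ± 0.11 in CD11c+ and 0.02 ± 0.11 in CD206+ cells on HFD. On SD it was higher in KO CD11c+ cells (0.38 ± 0.11, adjusted p = 0.0134) and at -0.25 ± 0.11 in CD206+ cells (adjusted p = 0.112).

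Itgam, which encodes CD11b, the alpha subunit of complement receptor 3, varied far less, from a group mean of 427 to one of 843 CPM. On SD the CD206+ libraries had 532, 532, 669.7 and 694 CPM in KO libraries, against 365, 378, 417 and 547 CPM in WT libraries. KO was higher by 0.51 ± 0.16 (adjusted p = 0.0201), with 1 WT library among the KO values, and the call was lost without KO replicate 3 or 4 or WT replicate 1 or 2 (0.0583 to 0.0759). On HFD KO against WT was not called. The means were 754 CPM in KO and 613 CPM in WT CD11c+ cells, and 672 and 522 CPM in CD206+ cells. With replicate number as a block both passed (0.30 and 0.36, adjusted p = 0.0498 and 0.0313, edgeR). They also passed without KO replicate 3 (0.0298 and 0.0412), and in CD11c+ cells without WT replicate 4 (0.0477). On SD the CD11c+ means were 761.5 CPM in KO and 843 CPM in WT, not called. In CD11c+ WT cells Itgam had 547, 559, 575 and 771 CPM on HFD, against 837, 711, 741 and 1084 CPM on SD. The HFD libraries were lower but for replicate 4 (-0.46 ± 0.16, adjusted p = 0.0192). This call was lost without HFD replicate 1, 2 or 3 or SD replicate 4 (0.0508 to 0.0786), and on library totals with no scaling factor (0.0581). In GENCODE vM21 Itgam shares 3450 exon bases with Gm49368 on the same strand, a gene that is not in the count tables.

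Itgal, the alpha subunit of LFA-1, the integrin of leukocyte contacts, was higher in KO than in WT cells in all 4 comparisons. In CD11c+ cells on HFD it had 86.1, 67.7, 70.9 and 109 CPM in KO libraries, against 7.11, 7.08, 10.5 and 16.6 CPM in WT libraries (3.01 ± 0.34, adjusted p = 3.98e-08). CD206+ cells on HFD had 84.6, 52.9, 63.4 and 110 CPM in KO libraries, against 10.5, 5.67, 15.2 and 8.99 CPM in WT libraries (2.95 ± 0.34, adjusted p = 1.13e-07). The groups did not overlap in either population. On SD the CD206+ libraries had 66.6, 57.8, 78.3 and 150.0 CPM in KO against 7.37, 9.07, 6.62 and 10.8 CPM in WT (3.38 ± 0.35, adjusted p = 2.01e-08). On SD the CD11c+ libraries had 76.0, 85.7, 80.4 and 151 CPM in KO against 41.4, 35.8, 34.9 and 69.6 CPM in WT (1.12 ± 0.31, adjusted p = 0.0081), again without overlap. Without KO replicate 4, the highest library, this difference was 0.83 with an adjusted p of 0.0589.

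The smaller difference in CD11c+ cells on SD went with a higher WT level there. WT CD11c+ cells held 10.3 ± 4.48 CPM of Itgal on HFD and 45.4 ± 16.4 CPM on SD (-2.13 ± 0.34, adjusted p = 4.61e-06). The genotype difference was larger on HFD by 1.89 ± 0.45 in CD11c+ cells (adjusted p = 0.00182). On SD it was smaller in CD11c+ than in CD206+ cells, by -2.27 ± 0.46 (adjusted p = 0.00233). Ordered by mean, the 4 KO groups came first, from 77.7 to 98.3 CPM, each overlapping the next, and CD11c+ WT SD overlapped the lowest of them. The other 3 WT groups lay at 8.45 to 10.3 CPM, below all of these.

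Itgb2, the shared beta subunit of these receptors, was the most abundant member per length in 6 of the 8 groups, and Itgb1 in CD206+ WT cells on both diets. Set over exon length, its group means ran from 156 to 530 CPM per kb, against 165 to 214 for Itgb1, 86.6 to 171 for Itgam and at most 1.4 for Itgae. Among CD206+ cells, the HFD libraries had 719, 803, 579 and 854 CPM in KO libraries, against 449.6, 537, 574 and 591 CPM in WT libraries (0.46 ± 0.14, adjusted p = 0.0158). The call was lost without KO replicate 4 (0.0649) or WT replicate 1 (0.0726). On SD it had 631, 563, 655 and 747 CPM in KO against 447, 439, 451 and 518 CPM in WT, with no overlap (0.49 ± 0.14, adjusted p = 0.01). In CD11c+ cells the KO against WT differences of Itgb2 were 0.25 ± 0.14 on HFD (adjusted p = 0.154, but 0.0269 without KO replicate 3 and 0.0354 without WT replicate 4) and 0.11 ± 0.14 on SD (adjusted p = 0.601).

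Shares of the 4 alpha subunits that pair with Itgb2 were taken from CPM per kb, which is a ratio of transcripts and not of proteins. Itgam made up 61.9% to 73.4% of their sum in the CD11c+ groups and 89.5% to 97.5% in the CD206+ groups. The sum holds Itgax, the sort gene, so the sort itself lowers the Itgam share in CD11c+ cells. The Itgam level was not lower there, with group means of 613 to 843 CPM in CD11c+ and 427 to 672 CPM in CD206+ groups. The Itgax share in CD11c+ cells on HFD was 21.3% ± 1.73 in KO and 36.8% ± 3.09 in WT (SD, n = 4 each), and the libraries did not overlap. For CD206+ cells it was 0.514% ± 0.138 in KO and 7.02% ± 3.14 in WT. The Itgal share on HFD was 6.2% ± 0.887 in KO and 0.784% ± 0.223 in WT CD11c+ cells, and 8.08% ± 1.75 in KO and 1.35% ± 0.482 in WT CD206+ cells. Itgb2 stood at 2.09 to 2.37 times the summed alpha subunits in the CD11c+ groups and at 1.57 to 1.78 times in the CD206+ groups.

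**Figure D3:**
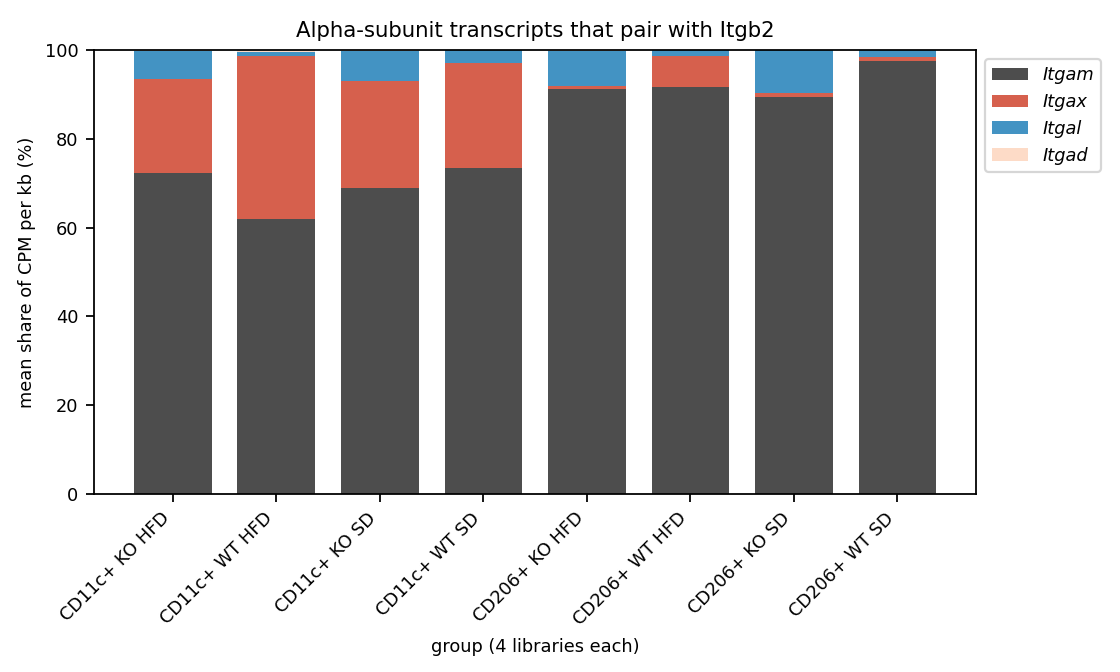
Mean share (vertical axis, percent of summed CPM per kb) of the 4 alpha-subunit transcripts that pair with Itgb2, in each group of 4 libraries (horizontal axis). Itgax takes 36.8% in CD11c+ WT HFD against 21.3% in CD11c+ KO HFD, and Itgad stays under 0.6% in every group and is hardly visible.

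Itgb7, the beta subunit of the gut-homing and epithelial-retention integrins, was higher in KO than in WT cells on HFD in both populations. CD11c+ cells on HFD had 75.9, 134, 123 and 112 CPM in KO libraries, against 14.2, 29.1, 25.6 and 54.0 CPM in WT libraries (1.86 ± 0.30, adjusted p = 1.29e-05). CD206+ cells on HFD had 49.5, 65.8, 44.8 and 76.8 CPM in KO libraries, against 5.58, 9.69, 16.0 and 11.4 CPM in WT libraries (2.48 ± 0.32, adjusted p = 6.3e-07). No KO library overlapped a WT library in either population. On SD the populations parted. CD206+ cells had 56.1, 32.1, 40.1 and 59.3 CPM in KO against 23.0, 19.0, 21.2 and 23.0 CPM in WT (1.12 ± 0.30, adjusted p = 0.00676). CD11c+ cells had 94.7, 90.0, 107 and 130 CPM in KO against 162, 168, 129 and 279 CPM in WT, so KO was lower (-0.81 ± 0.29, adjusted p = 0.0382).

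That lower call was lost without KO replicate 1, 2 or 3 or WT replicate 4 (0.0693 to 0.185), and on library totals with no scaling factor (0.0542). The difference between the populations on SD passed on its own, at -1.93 ± 0.42 (adjusted p = 0.00471). WT cells had less Itgb7 on HFD than on SD, by -2.58 ± 0.31 in CD11c+ cells (adjusted p = 4.5e-08) and by -1.02 ± 0.31 in CD206+ cells (adjusted p = 0.0154, and 0.0714 without HFD replicate 1). The interaction of genotype and diet was 2.66 ± 0.42 in CD11c+ cells (adjusted p = 1.36e-05) and 1.36 ± 0.43 in CD206+ cells (adjusted p = 0.0368). The value in CD206+ cells missed the threshold when any 1 of 10 of its 16 libraries was left out (1.14 to 1.39, adjusted p = 0.0517 to 0.09): KO HFD replicates 2 and 4, WT HFD replicates 1, 2 and 4, KO SD replicates 2 and 3, and WT SD replicates 1, 3 and 4.

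Itgae, which encodes CD103, a mark of some dendritic and T cells, was rare, and its reads are given as counts. In CD11c+ cells on HFD KO libraries had 34, 161, 151 and 69 reads, against 5, 4, 12 and 17 reads in WT libraries (3.49 ± 0.77, adjusted p = 0.000534). On SD KO libraries had 44, 78, 89 and 65 reads, against 0, 19, 0 and 10 reads in WT libraries (3.10 ± 0.78, adjusted p = 0.00349, and 4.09 without WT replicate 2). The groups did not overlap on either diet. A library with 0 reads allows up to 3 counts, 0.136 to 0.164 CPM in the 4 libraries concerned, counting error only. The 16 CD206+ libraries had 0 to 19 reads, and KO against WT gave 0.23 ± 1.09 on HFD (adjusted p = 0.917) and 1.01 ± 0.87 on SD (adjusted p = 0.438). The SD value rests on 1 library: without WT replicate 2, which held 19 of the reads, it was 3.30 with an adjusted p of 0.036. Reads this few bound what either comparison could show.

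Itga4, the alpha subunit of VLA-4, which binds VCAM-1 on vessels, was higher in KO cells in a pair of the comparisons. CD11c+ cells on HFD had 270.4, 130.3, 150.1 and 209 CPM in KO libraries, against 105, 112, 115 and 117 CPM in WT libraries (0.76 ± 0.19, adjusted p = 0.0017). On SD the CD206+ libraries had 141, 122, 169.5 and 238 CPM in KO libraries, against 78.7, 98.6, 86.2 and 133 CPM in WT libraries (0.76 ± 0.19, adjusted p = 0.00334). The first pair of groups did not overlap and the second did. The differences of 0.45 ± 0.19 in CD11c+ cells on SD (adjusted p = 0.071) and 0.47 ± 0.19 in CD206+ cells on HFD (adjusted p = 0.0692) missed the threshold, though no library overlapped. They passed when only the groups compared were fitted (0.012 and 0.0141). Itga4 shares 127 exon bases with Cerkl on the opposite strand, and the strand setting of the counts is not given in the sources used here.

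Markers of some other leukocytes moved with Itgal, Itgb7, Itga4 and Itgae in part of the comparisons. For the marker counts below, 18.6% of all genes were higher and 19.4% lower in KO CD11c+ cells on HFD. These shares were 10.5% and 11.3% in KO CD206+ cells on HFD. On SD they were 13.2% and 13.6% in CD11c+ and 11.8% and 12.7% in CD206+ cells. Of 12 T cell genes 11 were in the tables, none at 0 in any whole group, and all 11 were higher in KO on HFD in both populations. Their summed level was 70.5 to 119 CPM in KO against 12.6 to 19 CPM in WT CD11c+ libraries, and 84.5 to 172 CPM in KO against 10.4 to 21.2 CPM in WT CD206+ libraries. On SD 9 of 11 were higher and 1 lower in CD206+ KO cells (106 to 172 CPM against 26.6 to 39.9 CPM in WT). In CD11c+ cells on SD 4 were higher and 1 lower, and WT libraries summed to more (77.7 to 113 CPM in KO, 151 to 223 CPM in WT), of which Cd2 averaged 176 CPM.

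Of 11 dendritic cell genes besides Itgae, none at 0 in any whole group, 10 were higher and 1 lower in KO CD11c+ cells on HFD, with summed levels, Itgae included, of 218 to 497 CPM in KO and 375 to 464 CPM in WT. On SD 4 were higher and 2 lower (281 to 508 CPM in KO, 470 to 833 CPM in WT). In CD206+ cells 3 were higher and 1 lower on HFD (126 to 193 CPM in KO, 160 to 227 CPM in WT), and 2 higher and 3 lower on SD (177 to 207 CPM in KO, 319 to 406 CPM in WT). Of 7 monocyte genes all 7 were higher in KO CD11c+ cells on HFD, with sums of 1330 to 1550 CPM in KO and 312 to 494 CPM in WT, and 5 were higher in CD206+ cells on HFD (574 to 1110 CPM in KO, 356 to 587 CPM in WT). On SD 4 were higher in CD11c+ and 5 in CD206+ KO cells, but their sums overlapped (1420 to 1880 CPM in KO against 1520 to 2130 CPM in WT CD11c+ libraries, 572 to 1190 CPM in KO against 736 to 1090 CPM in WT CD206+ libraries). Most of each sum was Ccr2. Of 5 NK cell genes tested 4 were higher in KO CD11c+ cells on HFD, with sums of 2.78 to 17 CPM in KO and 1.11 to 2.05 CPM in WT, 1 was higher in CD206+ cells on HFD, and 2 in CD11c+ and 3 in CD206+ cells on SD. Of 5 neutrophil genes tested 2 were higher in KO CD11c+ and 3 in KO CD206+ cells on HFD, with Camp at 0 in both WT HFD groups, and the list summed to 54.3 to 110 CPM in KO against 24.8 to 31.1 CPM in WT CD11c+ libraries. On SD 1 was higher in KO CD11c+ cells (61.2 to 96.3 CPM in KO, 8.73 to 14.7 CPM in WT) and 2 in KO CD206+ cells (85.8 to 112 CPM in KO, 36.2 to 53.3 CPM in WT). Of 4 B cell genes tested 1 was higher in KO CD11c+ cells on SD, and 0 were called in the other KO against WT comparisons. Mast cell genes had lower mean sums in KO on HFD (15.2 against 30.5 CPM in CD11c+, 18.4 against 84.6 CPM in CD206+ cells). On SD these were 9.44 against 3.44 CPM and 10.1 against 9.41 CPM. The part of these cell types in the integrin differences was not tested, and in bulk libraries more cells of a type and more RNA per cell cannot be told apart.

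Itgav, the alpha subunit of the vitronectin receptors, was lower in KO than in WT cells on HFD. CD11c+ cells on HFD had 69.5, 75.7, 92.0 and 138 CPM in KO libraries, against 340.1, 262, 264 and 383 CPM in WT libraries (-1.74 ± 0.23, adjusted p = 6.9e-07). CD206+ cells on HFD had 62.9, 66.7, 52.4 and 87.2 CPM in KO libraries, against 257, 184, 173 and 261 CPM in WT libraries (-1.70 ± 0.23, adjusted p = 2.01e-06). No KO library came near a WT library. On SD the genotypes overlapped in both populations: 66.5 to 126 CPM in KO against 101 to 126 CPM in WT CD11c+ cells (-0.37 ± 0.23, adjusted p = 0.25), and 44.9 to 96.4 CPM in KO against 41.4 to 51.5 CPM in WT CD206+ cells (0.37 ± 0.23, adjusted p = 0.269).

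The diet difference of Itgav in WT cells was 1.51 ± 0.23 in CD11c+ cells (adjusted p = 3.04e-06) and 2.22 ± 0.24 in CD206+ cells (adjusted p = 4.78e-08). In KO cells it was 0.15 ± 0.23 in each population (adjusted p = 0.912 in CD11c+ and 0.96 in CD206+ cells). The interaction of genotype and diet was -1.37 ± 0.32 in CD11c+ cells (adjusted p = 0.00168) and -2.07 ± 0.33 in CD206+ cells (adjusted p = 8.17e-05). CD11c+ WT HFD stood barely above CD206+ WT HFD, with a lowest library of 261.8 CPM against a highest of 260.8 CPM. That difference was called only with a replicate block. Both groups stood above the remaining 6 groups, whose neighbours overlapped.

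Itgb5, which pairs with Itgav, had 169, 122, 171 and 232 CPM in KO libraries, against 681, 592, 619.5 and 551 CPM in WT libraries of CD11c+ cells on HFD (-1.81 ± 0.16, adjusted p = 6.68e-10). CD206+ libraries on HFD had 187, 229, 190.1 and 194 CPM in KO libraries, against 632, 546, 642 and 527 CPM in WT libraries (-1.55 ± 0.16, adjusted p = 2.02e-08). Every WT HFD library of either population had at least 527 CPM, and every other library at most 232 CPM. On SD the CD11c+ libraries had 121, 120.0, 110.5 and 136 CPM in KO against 49.2, 96.2, 74.2 and 94.0 CPM in WT, so KO was higher there (0.64 ± 0.16, adjusted p = 0.00351). The CD206+ libraries overlapped on SD (147 ± 16.9 CPM in KO, 170.1 ± 21.3 CPM in WT, -0.21 ± 0.16, adjusted p = 0.384).

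Among the diet differences Itgb5 had the largest of the members in CD11c+ WT cells, 2.96 ± 0.17 (adjusted p = 4.61e-14), beside 1.79 ± 0.16 in CD206+ WT cells (adjusted p = 2.81e-09). In KO cells its estimates were 0.51 ± 0.16 in CD11c+ (unadjusted p = 0.00347 and adjusted p = 0.288, edgeR) and 0.44 ± 0.16 in CD206+ cells (unadjusted p = 0.00996 and adjusted p = 0.673, edgeR). The interaction was -2.45 ± 0.23 in CD11c+ cells (adjusted p = 3.87e-09) and -1.35 ± 0.23 in CD206+ cells (adjusted p = 0.000152). On SD the genotype difference was more positive in CD11c+ than in CD206+ cells, by 0.84 ± 0.23 (adjusted p = 0.0218, and 0.0531 without CD206+ WT SD replicate 2).

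Itgb1, the beta subunit of most matrix receptors, was the steadiest member, with group means from 630 to 817 CPM. WT cells had more of it on HFD than on SD, by 0.30 ± 0.11 in CD11c+ cells (adjusted p = 0.0207) and 0.36 ± 0.11 in CD206+ cells (adjusted p = 0.0103). The first call was lost without HFD replicate 4 or SD replicate 2 or 4 (0.0534 to 0.118). KO against WT gave -0.21 ± 0.11 and -0.25 ± 0.11 on HFD in CD11c+ and CD206+ cells (adjusted p = 0.127 and 0.089), and 0.16 ± 0.11 on SD in each (0.268 and 0.282). On library totals with no scaling factor both HFD values passed, at -0.27 and -0.32 (0.0438 and 0.0289).

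Stromal cell genes moved with Itgav and Itgb5 in KO against WT on HFD and between the diets in WT, there also with Itgb1. On SD they did not follow Itgb5 in CD11c+ cells. They summed to 606 to 758 CPM in KO and 709 to 920 CPM in WT there, while Itgb5 was higher in KO. In CD206+ cells on SD they summed to 623 to 1200 CPM in KO and 789 to 1370 CPM in WT. All 8 stromal genes listed, none at 0 in any whole group, were lower in KO than in WT cells on HFD in both populations. Their summed level was 606 to 779 CPM in KO against 1190 to 1650 CPM in WT CD11c+ libraries, and 608 to 794 CPM in KO against 1120 to 2950 CPM in WT CD206+ libraries. In WT cells 7 of 8 were higher on HFD than on SD in each population, with SD sums of 709 to 920 CPM in CD11c+ and 789 to 1370 CPM in CD206+ libraries. Gsn, which macrophages also express, was the most abundant of them in every group. Mast cell genes, of which 5 of 6 tested were higher on HFD in WT cells of each population, summed to at most 123 CPM. Of 8 macrophage markers 6 were higher and 2 lower on HFD in CD11c+ WT cells, beside 23.8% and 22.6% of all genes. Their sum was lower on HFD, at 20900 to 24000 CPM against 31100 to 35000 CPM on SD. In CD206+ WT cells 2 were higher and 0 lower, beside 14.2% and 13.5%. In KO against WT on HFD 3 macrophage markers were lower in CD11c+ and 1 in CD206+ cells, beside 19.4% and 11.3% of all genes. On SD 5 were higher and 1 lower in KO CD11c+ cells, beside 13.2% and 13.6%, and 3 were higher in KO CD206+ cells, beside 11.8%. The part of these lists in the integrin differences was not tested.

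**Figure D4:**
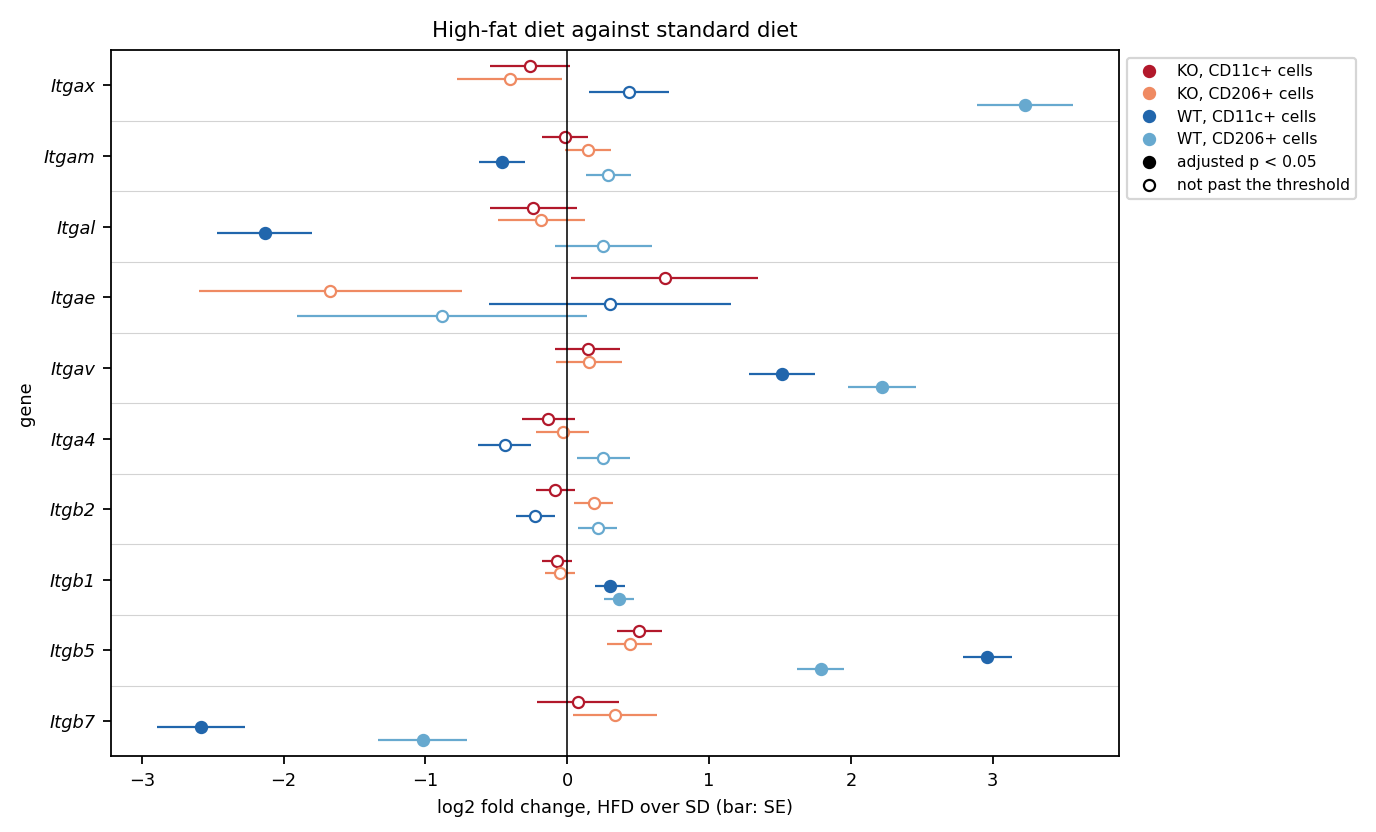
Log2 fold change of HFD over SD (horizontal axis) for each member (vertical axis) in KO and WT cells of both populations. Points are edgeR estimates, bars their SE, and filled points have an adjusted p under 0.05. No KO point is filled, while WT points of Itgb5 and Itgav lie right of 1.5 and those of Itgb7 left of -1.

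Between the populations 9 members were compared, Itgax being the sort gene. On HFD, CD11c+ KO cells were higher than CD206+ KO cells for 3 members (Itgae, Itgb2, Itgb7) and lower for 0, beside 23.3% and 22.5% of all genes. On SD the KO populations differed by the same 3 genes and by 0 lower, beside 25.6% and 26.1%. In WT cells on HFD 2 were higher in CD11c+ cells (Itgb2, Itgb7) and 0 lower, beside 11.7% and 8.7%. In WT cells on SD 6 were higher (Itgb7, Itgal, Itgb2, Itgav, Itgam, Itga4) and 1 lower (Itgb5), beside 30.2% and 33.5%. Libraries of the 2 populations with the same replicate number deviated together in 3 of these 4 settings, and with that pairing as a block 6 members were called in KO cells on SD, with Itga4, Itgam and Itgav added at 0.35, 0.33 and 0.51 (adjusted p = 0.0475, 0.00421 and 0.000139). In WT cells on HFD Itgav was added at 0.52 (adjusted p = 0.000268). In KO cells on HFD, where the numbers did not pair the libraries, the block likewise added Itgav at 0.45 (adjusted p = 0.00051).

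Itgb2 was higher in CD11c+ cells in every genotype and diet, by 1.01 ± 0.14 in KO and 1.21 ± 0.14 in WT on HFD, and by 1.28 ± 0.14 in KO and 1.65 ± 0.14 in WT on SD. All CD11c+ libraries had at least 1041 CPM of it and all CD206+ libraries at most 854 CPM. Itgb7 was higher in CD11c+ cells by 0.91 ± 0.29 (adjusted p = 0.0125) in KO and 1.53 ± 0.31 (adjusted p = 0.000733) in WT on HFD, and by 1.17 ± 0.30 (adjusted p = 0.00162) in KO and 3.10 ± 0.32 (adjusted p = 1.57e-09) in WT on SD. Itgae exceeded CD206+ cells in KO by 4.98 ± 0.86 on HFD (adjusted p = 3.23e-05, and 5.59 without CD206+ KO HFD replicate 1) and by 2.62 ± 0.75 on SD (adjusted p = 0.00444). Of the 11 dendritic cell genes besides Itgae, 9 were higher in CD11c+ than in CD206+ KO cells on each diet, with sums, Itgae included, of 218 to 497 CPM against 126 to 193 CPM on HFD, and their part was not tested.

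In WT cells on SD the populations differed most. Itgal was higher in CD11c+ cells by 2.43 ± 0.34 (adjusted p = 5.22e-07), Itgav by 1.22 ± 0.23 (adjusted p = 4.61e-05), Itgam by 0.98 ± 0.16 (adjusted p = 6.09e-06) and Itga4 by 0.62 ± 0.19 (adjusted p = 0.0054). Itgb5 was lower, with 78.4 ± 21.9 CPM in the CD11c+ libraries against 170.1 ± 21.3 CPM in the CD206+ libraries (-1.12 ± 0.16, adjusted p = 8.37e-07). T cell genes summed to 151 to 223 CPM in these CD11c+ libraries against 26.6 to 39.9 CPM in the CD206+ libraries, 2 of 11 higher and 1 lower. Of the 11 dendritic cell genes besides Itgae 8 were higher (470 to 833 CPM in CD11c+, 319 to 406 CPM in CD206+ libraries). Lower in the CD11c+ cells were 7 of 8 stromal genes (709 to 920 CPM against 789 to 1370 CPM), 8 of 8 endothelial genes (52.4 to 129 CPM against 158 to 257 CPM) and 6 of 7 adipocyte genes, with 1 higher (192 to 381 CPM against 371 to 700 CPM). Their part was not tested.

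Whether genotype acted differently in the 2 populations was tested by an interaction. On HFD 0 of the 9 members passed by edgeR, 1 at an unadjusted p under 0.05 (Itgae, named after its values were seen), and none by DESeq2, beside 2.16% and 2.2% of all genes. On SD 1 was more positive in CD11c+ cells (Itgb5) and 2 more negative (Itgb7, Itgal), beside 4.1% and 2.48%. With the populations paired 6 passed on SD, Itgam, Itgav and Itgb2 being added at -0.65, -0.72 and -0.36 (adjusted p = 0.00214, 0.00128 and 0.04). The diet difference of WT cells was more positive in CD11c+ cells for 1 member, Itgb5 (1.18 ± 0.23, adjusted p = 0.0002), and more negative for 4, beside 16.4% and 16% of all genes. These were Itgal (-2.39 ± 0.48, adjusted p = 0.000312), Itgb7 (-1.56 ± 0.43, adjusted p = 0.0059), Itgam (-0.75 ± 0.23, adjusted p = 0.0117) and Itga4 (-0.69 ± 0.26, adjusted p = 0.0437).

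The Itga4 value missed the threshold on library totals with no scaling factor (0.0817), and when any 1 of 10 of the 16 libraries was left out (0.0509 to 0.0858): each CD11c+ WT HFD library, each CD206+ WT HFD library, and CD206+ WT SD replicates 1 and 3. With the populations paired Itgav and Itgb2 were added, at -0.70 (adjusted p = 0.000292) and -0.44 (adjusted p = 0.00393). For Itgax, the sort gene, this diet term is a description with no test, at -2.79 ± 0.44. Its diet difference in WT was 0.44 ± 0.28 in CD11c+ and 3.23 ± 0.34 in CD206+ cells.

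**Figure D5:**
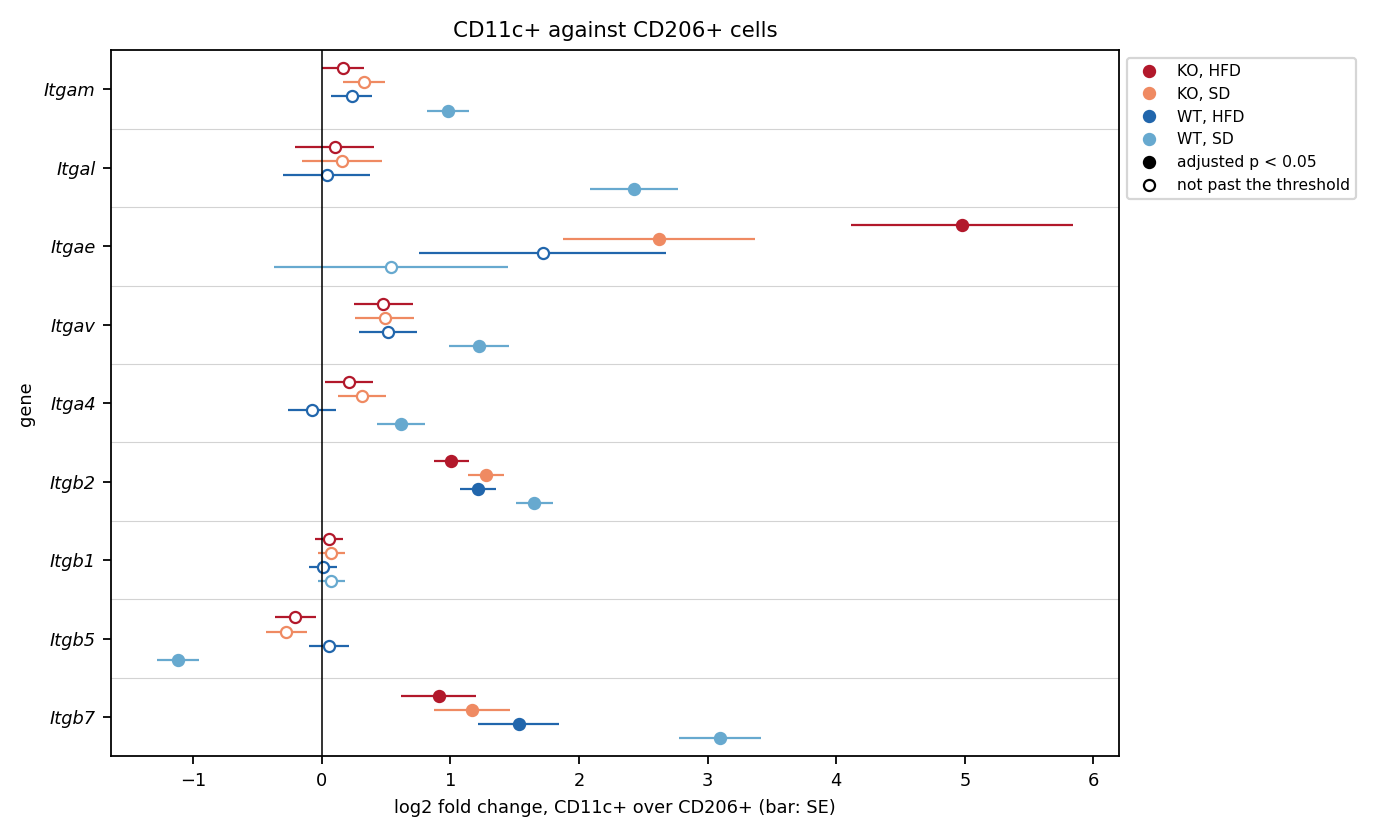
Log2 fold change of CD11c+ over CD206+ cells (horizontal axis) for 9 members (vertical axis) in each genotype and diet. Points are edgeR estimates, bars their SE, and filled points have an adjusted p under 0.05. Itgb2 and Itgb7 lie right of 0 and are filled in all 4 settings, and Itgb5 lies left of -1 in WT cells on SD.

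Of 16 other integrin subunits 14 were tested, and few were abundant. On HFD 4 were lower and 1 higher in KO than in WT CD11c+ cells, and 2 lower and 0 higher in CD206+ cells. As shares of the 14 these were 28.6% lower and 7.14% higher in CD11c+ cells, beside 19.4% and 18.6% of all genes, and 14.3% lower in CD206+ cells, beside 11.3%. Itga6, a laminin receptor subunit, had 12.5 ± 3.02 CPM in KO and 84.4 ± 14.1 CPM in WT CD11c+ cells on HFD (-2.75 ± 0.27, adjusted p = 2.41e-09), and 16.6 ± 4.39 CPM in KO and 93.0 ± 13.7 CPM in WT CD206+ cells (-2.48 ± 0.26, adjusted p = 2.4e-08). Itga5, the fibronectin receptor subunit, was lower in KO by -0.82 ± 0.16 in CD11c+ and -0.87 ± 0.16 in CD206+ cells. Itga9, a receptor for osteopontin and tenascin, was lower in CD11c+ cells, with 24.1 ± 6.25 CPM in KO and 48.3 ± 6.25 CPM in WT (adjusted p = 1.7e-05). Between the diets in WT, 4 (28.6%) were higher and 3 (21.4%) lower on HFD in CD11c+ cells, beside 23.8% and 22.6% of all genes. In CD206+ cells 3 (21.4%) were higher and 0 lower, beside 14.2% and 13.5%. Of those with at least 10 CPM in the higher group Itga6 had the largest change in both populations (3.43 ± 0.28 and 2.14 ± 0.26). On SD 4 (28.6%) were lower in KO in each population, beside 13.6% of all genes in CD11c+ and 12.7% in CD206+ cells. Each of the 4 in CD11c+ cells had a mean under 10 CPM in both genotypes. Higher in KO on SD were 0 in CD11c+ and 1 (7.14%) in CD206+ cells, beside 13.2% and 11.8%. In CD206+ cells on SD Itga1 had 4.43 ± 0.790 CPM in KO and 14.4 ± 4.85 CPM in WT (-1.70 ± 0.48). Endothelial genes moved with the fall on SD in CD206+ cells, 7 of 8 being lower in KO (71.5 to 86.9 CPM against 158 to 257 CPM in WT). In CD11c+ cells 5 of 8 were lower in KO on SD (23 to 39.4 CPM in KO, 52.4 to 129 CPM in WT) and 4 of 8 on HFD (28.1 to 74.1 CPM in KO, 39.2 to 146 CPM in WT), and in CD206+ cells on HFD 0 of 8 passed (74.4 to 117 CPM in KO, 59.8 to 289 CPM in WT). Their part was not tested.

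Of 22 ligand genes 18 were tested. In KO against WT cells 7 were higher and 4 lower in CD11c+ cells on HFD, 4 and 4 in CD206+ cells on HFD, 2 and 7 in CD11c+ cells on SD, and 3 and 4 in CD206+ cells on SD. As shares of the 18 these were 38.9% higher and 22.2% lower in CD11c+ cells on HFD, beside 18.6% and 19.4% of all genes, and 22.2% each way in CD206+ cells on HFD, beside 10.5% and 11.3%. On SD they were 11.1% higher and 38.9% lower in CD11c+ cells, beside 13.2% and 13.6%, and 16.7% and 22.2% in CD206+ cells, beside 11.8% and 12.7%. Complement C3, whose fragment iC3b binds the CD11b and CD11c integrins, was higher in KO in all 4. Its level was 705 ± 361 CPM in KO and 64.3 ± 24.3 CPM in WT CD11c+ cells on HFD, and 769.9 ± 108 CPM in KO and 32.1 ± 5.73 CPM in WT on SD. In CD206+ cells it was 1132 ± 161 CPM in KO and 162 ± 92.5 CPM in WT on HFD, and 1287 ± 239.9 CPM in KO and 80.9 ± 48.2 CPM in WT on SD. Mfge8, the bridge from dying cells to Itgav integrins, was lower in KO in all 4, with 19.3 ± 8.67 CPM in KO and 283 ± 48.2 CPM in WT CD11c+ cells on HFD (-3.87 ± 0.29, adjusted p = 1.91e-11).

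Spp1, which encodes osteopontin, a ligand of Itgav integrins, had 37.0 ± 15.0 CPM in KO and 199 ± 39.6 CPM in WT CD11c+ cells on HFD, and 4.15 ± 2.12 CPM in KO and 78.3 ± 22.6 CPM in WT CD206+ cells. Vcam1, the ligand of VLA-4, was higher in KO CD11c+ cells on SD (1.43 ± 0.32), and Nid1, a basement membrane protein, lower in KO CD206+ cells on SD (-1.41 ± 0.40). Between the diets in WT cells 4 ligands were higher and 4 lower on HFD in CD11c+ cells (22.2% each way), near the 23.8% and 22.6% of all genes. In CD206+ cells 3 (16.7%) were higher and 1 (5.56%) lower, beside 14.2% and 13.5%. Fn1, fibronectin, was lower in both, with 1391 ± 422 CPM on HFD and 11410 ± 4082 CPM on SD in CD11c+ cells (-3.04 ± 0.40) and 465 ± 176 CPM on HFD and 981 ± 546 CPM on SD in CD206+ cells (-1.08 ± 0.37). Thbs1, thrombospondin, was higher on HFD in CD206+ cells (1.34 ± 0.46, adjusted p = 0.0283).

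Of 38 genes of integrin activation and adaptors 37 were tested. In KO against WT cells 16 were higher and 6 lower in CD11c+ cells on HFD, 8 and 6 in CD206+ cells on HFD, 11 and 8 in CD11c+ cells on SD, and 15 and 5 in CD206+ cells on SD. As shares of the 37 the higher ones were 43.2%, 21.6%, 29.7% and 40.5% in that order, beside 18.6%, 10.5%, 13.2% and 11.8% of all genes, and the lower ones 16.2%, 16.2%, 21.6% and 13.5%, beside 19.4%, 11.3%, 13.6% and 12.7%. The list medians in the same order were 0.257, 0.0947, 0.0217 and 0.252, against -0.0169, -0.00436, -0.0193 and -0.0349 over all genes. Cd9, a tetraspanin that associates with integrins, was lower in KO on HFD, with 132 ± 42.5 CPM in KO and 819 ± 88.8 CPM in WT CD11c+ cells (-2.63 ± 0.26), and 43.4 ± 15.5 CPM in KO and 351 ± 69.2 CPM in WT CD206+ cells (-3.02 ± 0.26). Fgr, a kinase that acts below leukocyte integrins, was higher in KO by 2.24 ± 0.28 in CD11c+ and 1.73 ± 0.28 in CD206+ cells on HFD, and by 2.05 ± 0.28 in CD206+ cells on SD. Src, the founding kinase of its family, was higher in KO in CD206+ cells on both diets (2.16 ± 0.22 on HFD, 2.83 ± 0.23 on SD).

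Parvg, the leukocyte parvin, was higher in KO CD11c+ cells by 2.18 ± 0.25 on HFD and 2.32 ± 0.25 on SD, and Tgm2, a transglutaminase that serves as an integrin co-receptor, by 1.90 ± 0.35 on SD. Between the diets in WT cells 10 (27%) of these genes were higher and 16 (43.2%) lower on HFD in CD11c+ cells, beside 23.8% and 22.6% of all genes. In CD206+ cells 12 (32.4%) were higher and 4 (10.8%) lower, beside 14.2% and 13.5%. Cd9 was higher on HFD in both (2.20 ± 0.25 in CD11c+ and 2.94 ± 0.26 in CD206+ cells). In CD11c+ cells the tetraspanin Cd81 (-1.83 ± 0.16) and Fgr (-1.70 ± 0.28) were lower. In CD206+ cells Rasgrp2, an activator of Rap1 (-1.45 ± 0.25), and talin-2, Tln2 (-1.19 ± 0.32), were lower. In KO cells 0 of the tested genes of these 3 lists were called between the diets by edgeR in either population.

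Across the 8 group means of log2 CPM, members were set against each other and against 8068 genes with at least 10 CPM (8069 for Itgae, which is below that level itself), as a description over points that share libraries. Itgal and Itga4 were the most alike pair (Pearson r = 0.955), followed by Itgam with Itgb7 (0.877), Itgam with Itgb2 (0.873) and Itgax with Itgb2 (0.866). Itgav and Itgb5 had r = 0.726, and Itgb5 and Itgb7 ran opposite (-0.804). The genes most like Itgax were Pqlc3 (0.996), Slc35a4 (0.993) and Kcnn4 (0.993). For Itgam they were Ncf1 (0.989), a subunit of the phagocyte oxidase, Spata2 (0.969) and Stip1 (0.966). For Itgae they were Nup85 (0.97), Mkrn1 (0.969) and Mrpl50 (0.965), for Itgav Sel1l (0.991), Rhbdd2 (0.987) and Pcdh7 (0.982), and for Itgb7 Eef2kmt (0.985), Crnkl1 (0.977) and Selt (0.976). Taking the highest of so many genes over 8 points favours high r values, and for Itgax the pattern also carries the sort. A high r need not mean a change of like size: group means ran from 35.1 to 42.2 CPM for Nup85 and from 0.142 to 5.39 CPM for Itgae.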

How the data were processed

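The deposited files hold, for each of 32 libraries, raw integer counts by gene symbol (24421 genes), as the authors made them and without scaling. Per the submitters' processing notes, TopHat2 2.1.0 and SAMtools 0.1.18 were used with mm10 (GRCm38), besides Trimmomatic 0.35 and FastQC 0.11.4. Which counter, annotation and strand setting made the counts is not given in the sources used here. Left out were 5 entries that name no gene: reads outside genes took 5.16% to 11.1% of a library's total and ambiguous reads 0.992% to 1.48%. Groups and replicate numbers came from the sample titles.

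The tests ran under R 4.3.3 in edgeR 4.0.16 (limma 3.58.1), with filterByExpr with a minimum count of 10, TMM scaling, 1 quasi-likelihood fit of all 32 libraries with a mean for each of 8 groups, and 17 contrasts with Benjamini-Hochberg adjustment over 13453 genes. SEs are the size of the log2 fold change over the root of F. Shares and levels between genes use exon lengths of GENCODE vM21, and promoter sequences are RefSeq's. Alternatives were RLE scaling, library totals, no filter, DESeq2 1.42.0, the compared groups alone, blocks by replicate number, and leaving out each library. The procedure was tested on simulated data. Replicates differed by more than sampling noise (chi-square of 10.9 to 68.1 per degree of freedom).

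The replicate numbers pair the populations: deviations of same-numbered CD11c+ and CD206+ libraries correlated at 0.22 to 0.36 in KO SD, 0.33 to 0.62 in WT HFD and 0.23 to 0.39 in WT SD, each library best with its own number, but at -0.07 to 0.42 in KO HFD. Between genotypes or diets, deviations over all genes did not pair in this way. For the members, though, replicate 4 took the largest share of counts in every group. It was 0.479% against 0.384% to 0.389% in CD11c+ WT HFD, and 0.219% against 0.183% to 0.198% in CD206+ WT SD. The cause was not tested, and this shift is part of the spread within groups.

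The members, lists and tests were chosen with earlier results of these data known. All members are named. From each list and each KO against WT or WT diet contrast, up to 3 called genes with the largest change and at least 10 CPM in the higher group are named, and the 3 genes most like each of 5 members. A gene that this rule names is not reported here.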

Additional observations from a re-analysis of the deposited data

Results flagged for a closer look

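Single libraries stood apart from the other 3 of their group in 6 of 80 checks, where chance gives about 1 in 20. These were Itgam in CD11c+ WT HFD replicate 4 (771 CPM), Itgal in CD11c+ KO SD replicate 4 (151.1 CPM), Itgae in CD206+ WT SD replicate 2 (0.879 CPM, from 19 reads), Itgav in CD206+ KO SD replicate 4 (96.4 CPM), Itgb2 in CD206+ WT SD replicate 4 (518 CPM) and Itgb5 in CD206+ KO HFD replicate 2 (229 CPM). The remaining results here are differences between effects that passed their own test (edgeR, adjusted p in the text above). The exceptions are those of Itgax between the populations, which are descriptions because Itgax is the sort gene.

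The KO against WT difference changed with diet in CD11c+ cells for Itgal (1.89), Itgav (-1.37), Itgb5 (-2.45) and Itgb7 (2.66, all log2, HFD less SD). In CD206+ cells it changed for Itgax (-3.64), Itgav (-2.07), Itgb5 (-1.35) and Itgb7 (1.36). It differed between CD11c+ and CD206+ cells for Itgax on HFD (2.63) and on SD for Itgal (-2.27), Itgb5 (0.84) and Itgb7 (-1.93). The diet difference of WT cells differed between CD11c+ and CD206+ cells for Itgax (-2.79), Itgam (-0.75), Itgal (-2.39), Itga4 (-0.69), Itgb5 (1.18) and Itgb7 (-1.56).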

How the results depend on the processing

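Over 1090 comparisons of a member's result with another setting, 1042 kept their side of the threshold, 5 lost a call and 43 gained one. No result called in either setting changed sign, and the sign of results called in neither was not compared. Leaving out 1 library gave 1760 more, with 1687 kept, 46 lost and 27 gained. Both totals include Itgax between the populations, where the sort on CD11c bounds the result. Of the counts of members, that of CD11c+ against CD206+ in KO cells on SD moved from 3 to 5 with a replicate block, 5 with the compared groups alone and 6 with the replicate block within genotype and diet, and to 3 to 5 on leaving out a library. The count for genotype by population on SD moved from 3 to 5 with a replicate block and 6 with the block within genotype and diet. The block changed no other member count by over 1.5 times, but 3 counts moved by just that factor. KO against WT went from 6 to 9 in CD206+ cells on HFD and from 4 to 6 in CD11c+ cells on SD. CD11c+ against CD206+ in WT cells on HFD went from 2 to 3. Of counts over all genes, genotype by population gave 586 on HFD and 1209 with the block within genotype and diet (300 to 738 on leaving out a library, 300 without CD11c+ WT HFD replicate 1), and 884 and 1612 on SD. HFD against SD in KO gave 1 gene in CD11c+ cells (0 on library totals, with the block or in the compared groups alone) and 0 in CD206+ cells (1 with no filter). The causes were not tested. Library totals shifted the median gene (log2) by 0.116 in HFD against SD of CD11c+ WT cells, -0.182 in CD11c+ against CD206+ of WT SD cells, -0.103 in genotype by diet (CD11c+), 0.105 in genotype by population (SD) and 0.108 in diet by population. Low counts limit Itgae.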
